A study of Mus musculus with 8 samples.

Results

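The Rab genes encode small GTPases that direct membrane traffic. They were taken here as the protein coding mouse genes whose whole name is Rab, a number and at most 1 letter, which gave 59 genes of the 35944 genes with a transcript in the deposited table. All 59 were in the table, 57 had at least 1 read in some library, 44 had reads in every library, and Rab17 and Rab42 were at 0 throughout. Expression was measured by RNA-seq of total RNA from mouse buffy coat, the layer of white cells and platelets taken from centrifuged blood. Of the 8 libraries, 4 came from mice exposed to PM2.5, airborne particles of fine size (replicates 9, 17, 18 and 21), and 4 from controls given PBS, a buffered salt solution (replicates 4, 10, 12 and 16). The series' design gives 24 weeks for the exposure. The sources used here give no strain, sex, age, dose or route. The labels do not say that each library is a separate animal, so the p-values measure only the spread between these samples.

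A Rab protein switches between a GDP-bound form in the cytosol and a GTP-bound form on a membrane. Exchange factors load GTP, GTPase activating proteins (GAPs) speed its hydrolysis, and effectors bind the GTP form to tether, move or fuse vesicles. Prenyl groups added to cysteines at the end of the protein hold it in the membrane, and each family member marks its own set of compartments. In blood cells Rab proteins are known for the release of granules by platelets, neutrophils and mast cells, for the maturation of phagosomes, and for the recycling of the transferrin receptor in red cell precursors.

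The last 30 coding bases of 12 members, the stop codon included, show how the prenylation signal differs among the genes described here. They were read 5′ to 3′ from the GENCODE M21 coding sequence, and the cysteine codons among the last 5 codons before the stop are in capitals. For each gene the protein coding transcript with the most reads was used, among those with a complete coding sequence.
Rab5a: ccagccagaagccagTGTTGTagtaactga
Rab5b: cagaacaagagccagTGTTGTagcaactga
Rab5c: gccagccggagccagTGCTGCagcaactga
Rab11a: ccaaaggtgcagTGCTGTcagaacatctaa
Rab11b: aacaagctgcagTGCTGCcagagcctgtga
Rab10: gtgacgggctggaagagcaagTGCTGCtga
Rab6a: ccagtcaatgaaggcggcTGTtccTGCtaa
Rab7: aaggcctccgcagaaagcTGCagtTGTtga
Rab27a: gagaaggagaaggggttgTGTggcTGTtga
Rab3d: cccccacagccgagcagcTGCagcTGTtag
Rab14: caaccccagagagaaggcTGTggcTGCtag
Rab8b: accagtttcttccgcTGTtctctgctttga
Of the 59 members, 50 had 2 cysteine codons in that stretch and 9 had 1, Rab8b among them. The Rab5 and Rab11 genes have adjacent cysteine codons followed by further codons, Rab10 ends on the pair, and Rab6a, Rab7, Rab27a, Rab3d and Rab14 have another codon between them. Among 21 pairs of close family members, coding identity ran between 60.0% (Rab7 and Rab7b) and 78.5% (Rab6a and Rab6b), and the longest stretch of identical bases between 13 and 38. Rab5a and Rab5b, at 74.1% identity, shared a run of 35 bases. Reads within such runs can belong to either gene, and the sources used here do not say how the authors' counting treated them.

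The windows of 250 bases before the annotated starts of Rab5a and Rab5b are shown because these were the members whose PM2.5 and PBS libraries did not overlap. They are RefSeq sequence on build GRCm38.p6, at chr17:53478984-53479233 on the plus strand for Rab5a and at chr10:128696269-128696518 on the minus strand for Rab5b, each written 5′ to 3′ on the strand of its gene. Capitals mark matches on either strand to GGGCGG, to CCAAT or to CACGTG, the last of which reads the same on both strands; no motif contains another, and a match on the minus strand of the gene appears as the reverse complement.
Rab5a: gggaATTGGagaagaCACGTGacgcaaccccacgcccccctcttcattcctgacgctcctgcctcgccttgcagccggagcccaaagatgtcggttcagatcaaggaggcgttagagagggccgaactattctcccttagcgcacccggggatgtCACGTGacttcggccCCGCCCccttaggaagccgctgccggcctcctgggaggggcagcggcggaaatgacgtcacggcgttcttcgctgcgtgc
Rab5b: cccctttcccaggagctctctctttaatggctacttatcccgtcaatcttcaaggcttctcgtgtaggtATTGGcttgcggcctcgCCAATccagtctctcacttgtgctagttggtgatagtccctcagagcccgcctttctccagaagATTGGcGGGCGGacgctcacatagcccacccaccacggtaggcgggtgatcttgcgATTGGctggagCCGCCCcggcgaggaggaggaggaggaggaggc
Rab5a had 1 GGGCGG, 1 CCAAT and 2 CACGTG matches with a GC content of 64.0%. Rab5b had 2 GGGCGG, 4 CCAAT and 0 CACGTG matches with a GC content of 59.2%. Over the 60 RefSeq windows of the 48 members that matched, 66.7% held GGGCGG, against 32.7% of all 32851 windows. CCAAT was held by 40.0% of the members' windows and 33.8% of all windows, CACGTG by 8.3% of the members' and 6.0% of all, and TATAAA by 6.7% of the members' and 12.4% of all. The median GC content was 60.2% over the members' windows and 52.4% over all windows. These matches describe the letters in the windows and no binding was measured.

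Read totals over the genes lay between 72728282 and 84971367 in the PM2.5 libraries and between 72042685 and 89003605 in the PBS libraries. Haemoglobin transcripts took 86.72% to 88.65% of reads in the PM2.5 libraries and 82.35% to 87.93% in the PBS libraries, so the buffy coat held RNA of red cells or their precursors. Markers of neutrophils, monocytes, B cells, T cells, natural killer cells and platelets were also detected. Apart from haemoglobin, the libraries held 9615115 to 11008297 reads under PM2.5 and 10739168 to 12714432 under PBS, and these set the precision for the Rab genes. In bulk RNA, fewer cells of a type and less RNA per cell cannot be told apart.

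The Rab genes made up a small part of the RNA in both groups. They took 0.1438%, 0.1094%, 0.1185% and 0.131% of the reads outside haemoglobin in PM2.5 libraries 9, 17, 18 and 21, against 0.1514%, 0.1388%, 0.1144% and 0.1351% in PBS libraries 4, 10, 12 and 16. The groups overlapped, with means of 0.1257% ± 0.015 under PM2.5 and 0.1349% ± 0.0154 under PBS (SD, n = 4 each). The summed FPKM (fragments scaled for transcript length and for the total of the library, as deposited) of the members was 83.41 ± 17.4 under PM2.5 and 101.9 ± 25.1 under PBS (SD, n = 4 each). FPKM is a share of all reads, haemoglobin included, whereas the library-scaled counts (CPM) used for the comparison below are scaled by TMM, a method that sets the bulk of genes level between libraries. The TMM factors differed widely, from 0.6381 to 1.105 in the PM2.5 libraries and from 0.8323 to 1.518 in the PBS libraries, so a gene can be lower in FPKM and higher in CPM in the same library.

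Recycling and early endosome genes stood highest. Ranked by summed FPKM, Rab11a, which directs vesicles of the recycling endosome to the cell surface, came first, then Rab5c, an organiser of early endosomes, and then Rab11b, a close relative of Rab11a, in that order in all 8 libraries. Rab11a stood at 21.43, 11.28, 16.22 and 18.07 FPKM in the PM2.5 libraries, against 25.79, 15.72, 14.58 and 15.36 FPKM in the PBS libraries. Rab5c stood at 10.86, 8.73, 10.99 and 11.32 FPKM in the PM2.5 libraries, against 15.07, 11.64, 11.38 and 13.5 FPKM in the PBS libraries. Rab11b stood at 9.38, 6.11, 6.5 and 8.17 FPKM in the PM2.5 libraries, against 12.26, 8.49, 6.24 and 8.78 FPKM in the PBS libraries. All 3 had their highest level in PBS replicate 4. The levels of the groups overlapped for Rab11a and Rab11b, while for Rab5c each PM2.5 library was below each PBS library on this scale. The margin was narrow, with the highest PM2.5 library at 11.32 FPKM and the lowest PBS library at 11.38 FPKM. The share of all genes that separate in FPKM was not computed.

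Below these 3 the order by summed FPKM varied between libraries. Rab10, which carries vesicles such as those of the glucose transporter GLUT4 to the surface, ranked between 4 and 6 over the libraries with a mean of 5.816 FPKM. Rab6a, of Golgi traffic, ranked between 4 and 7 with 5.478 FPKM, and Rab18, of the endoplasmic reticulum and lipid droplets, between 4 and 7 with 4.962 FPKM. Rab43, a Golgi member, took ranks from 4 to 11. The remaining 5 of the 12 highest were Rab7 of late endosomes and lysosomes (3.268 FPKM), Rab27b of secretory granules (3.252 FPKM), Rab5a (3.181 FPKM), Rab8b of exocytosis (3.168 FPKM) and Rab14 of recycling and Golgi traffic (2.452 FPKM). These are means over all 8 libraries, and the library ranges of neighbours in this order overlapped. The first 5 genes held 52.4% of the summed FPKM of the family. A mean of at least 5 FPKM was found for 5 members, 1 to 5 for 13, 0.1 to 1 for 23 and below 0.1 for 18. The median coefficient of variation over members was 21.7% in the PM2.5 libraries and 17.4% in the PBS libraries.

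**Figure D1:**
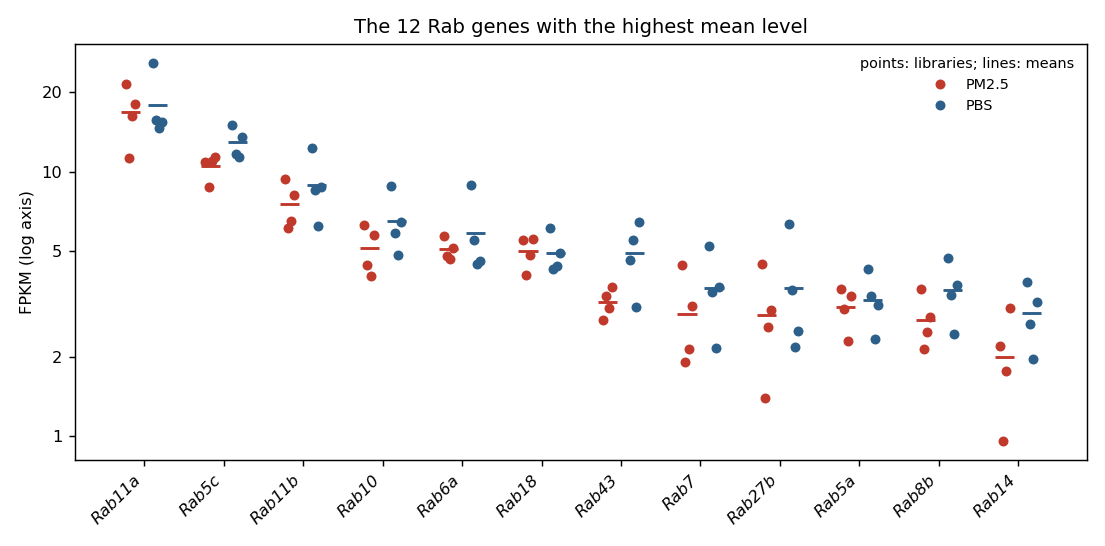
Summed FPKM of the 12 Rab genes with the highest mean, on a log axis, with 1 point for each PM2.5 library and each PBS library. Rab11a, Rab5c and Rab11b are the first 3 genes in every library, and PBS replicate 4 gives the highest point of all 3.

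The first place of Rab11a rests on short annotated transcripts, because a short transcript gives many FPKM per read. When each gene's reads were divided by the length of its leading transcript alone, a calculation added after the levels were seen, Rab5c came first with 9.51 FPKM, followed by Rab11b with 8.64, Rab10 with 5.33, Rab6a with 4.53 and Rab11a with 4.26. Rab11a transcripts of 462 and 595 bases raised its summed level to 17.3 FPKM. Rab18 went the same way, at 0.84 FPKM by its leading transcript, rank 18, and 4.96 FPKM summed. The reads that place these genes on short transcripts come from the authors' estimate, so the order of Rab11a and Rab18 among the members depends on it. The place of Rab11b depends on that estimate too. Its leading transcript, of 1544 bases, held 47% of its reads, and a transcript of 6109 bases held 42.3%.

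Within the small families 1 gene usually prevailed. Of the summed FPKM of the Rab5 genes, Rab5c took 71.0% ± 4.69 under PM2.5 and 73.4% ± 3.2 under PBS, and Rab5a 20.9% ± 3.32 under PM2.5 and 18.5% ± 2.32 under PBS (SD, n = 4 each). Rab7 took 98.0% ± 0.954 under PM2.5 and 98.1% ± 0.53 under PBS of its pair with Rab7b. Rab27b took 84.7% ± 6.1 under PM2.5 and 83.8% ± 7.7 under PBS of its pair with Rab27a. Rab11a took 68.7% ± 2.75 under PM2.5 and 66.6% ± 2.87 under PBS of its pair with Rab11b, and Rab6a 93.6% ± 2.07 under PM2.5 and 93.0% ± 1.63 under PBS of its pair with Rab6b. In each of these shares the groups differed by less than the larger of their SDs.

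Of the 59 members, 41 had enough reads to be tested. None was called in PM2.5 against PBS by edgeR's quasi-likelihood test at a Benjamini-Hochberg adjusted p under 0.05 over 10361 genes, where 1.6% of all genes tested were called, 0.463% higher and 1.14% lower under PM2.5. At an unadjusted p under 0.05, 5 of the 41 passed (12.2%), against 18.1% of all genes, and they were Rab5a, Rab3d, Rab18, Rab11a and Rab6a, all higher under PM2.5. DESeq2 called 0 of them at an adjusted p under 0.05 and 6 at an unadjusted p under 0.05. The fold change was positive for 28 of the 41 (68.3%), against 54.3% of all genes tested. Its median was 0.20 over the Rab genes and 0.04 over all genes on the log2 scale, and the Rab genes ran from -0.45 to 0.72. The sign of the raw fold changes rests on the scaling: with scaling to library totals the median was -0.38 over the Rab genes and -0.52 over all genes, and with haemoglobin removed before that scaling -0.14 and -0.30. The 95% interval lay within a 2-fold change either way for 33 of the 41 genes and within 1.5-fold for 14. Smaller differences were not detectable for most members at this spread and depth.

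**Figure D2:**
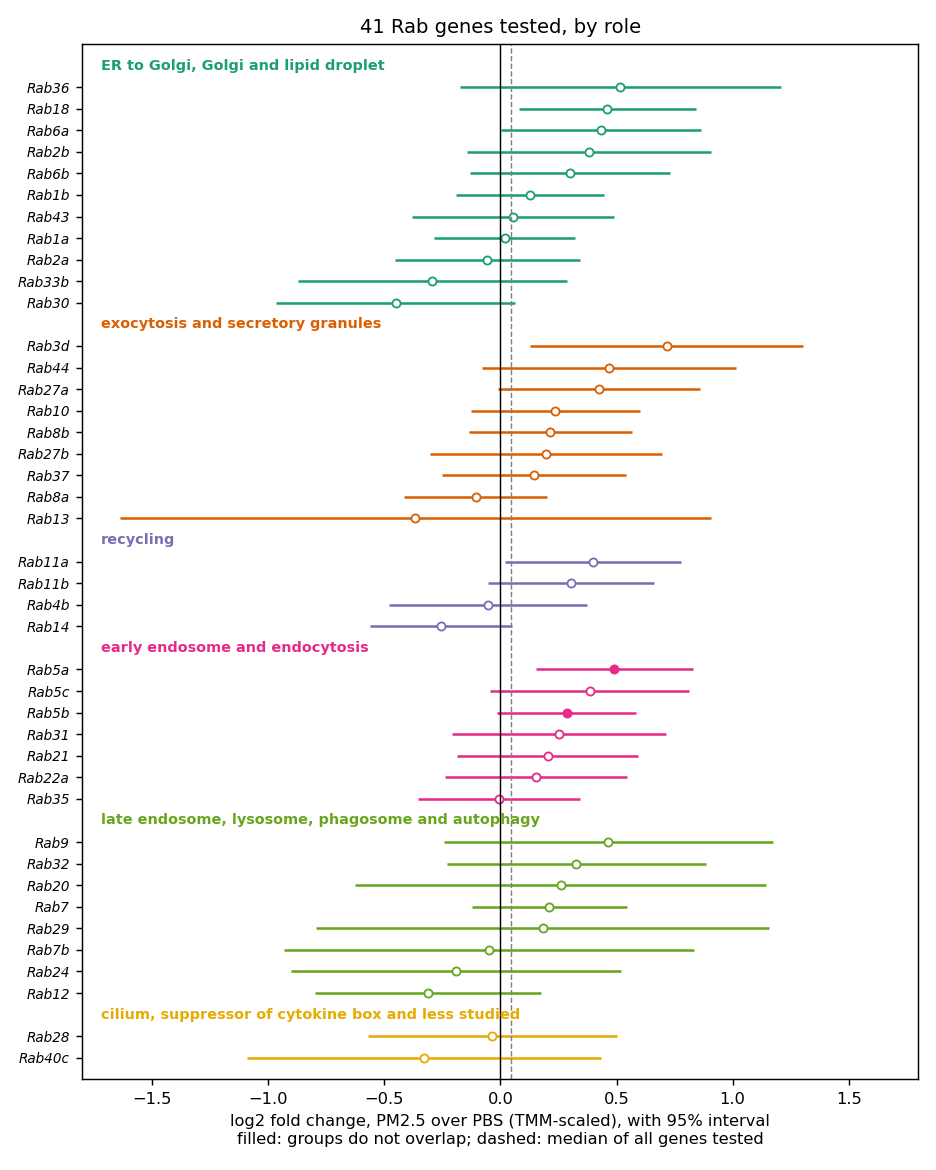
Log2 fold change (PM2.5 over PBS) of the 41 Rab genes tested, ordered by role, with horizontal bars for the 95% interval; filled points mark genes whose groups do not overlap. Rab5a and Rab5b are filled, 28 points lie above 0, and the changes run from -0.45 to 0.72.

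The early endosome genes included the members whose libraries separated. Rab5a, which sits at chromosome 17, 53479234 to 53507680 on the plus strand (GRCm38), drives the fusion of incoming vesicles with early endosomes. It had 6.896, 9.876, 7.531 and 7.27 CPM in PM2.5 libraries 9, 17, 18 and 21, against 6.018, 5.316, 5.941 and 5.17 CPM in PBS libraries 4, 10, 12 and 16. Each PM2.5 library was above each PBS library, and PM2.5 replicate 17 was highest. The log2 fold change was 0.49 (SE 0.16, 95% interval 0.15 to 0.83), and edgeR's adjusted p was 0.13. Without PM2.5 replicate 17 the change was 0.37 (edgeR adjusted p = 0.276), and DESeq2 gave 0.49 (adjusted p = 0.0588). Scaled to library totals the raw change was -0.11, and 0.13 with haemoglobin removed first.

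Rab5b, at chromosome 10, 128677175 to 128696264 on the minus strand, acts at the same membranes. It had 4.543, 3.921, 3.701 and 3.92 CPM in the PM2.5 libraries, against 3.155, 3.274, 3.47 and 3.325 CPM in the PBS libraries. The PM2.5 libraries were again all above the PBS libraries, by a smaller margin, with means of 4.021 ± 0.3631 CPM under PM2.5 and 3.306 ± 0.1303 CPM under PBS (SD, n = 4 each). Its log2 fold change was 0.28 (SE 0.14) and the interval of -0.01 to 0.58 included 0 (edgeR adjusted p = 0.297); with library totals it was -0.25, and -0.04 with haemoglobin removed first. Thus 2 of 41 members (4.88%) had groups that did not overlap, both higher under PM2.5, against 9.65% of all genes in either direction, 3.01% with all PM2.5 libraries above and 6.64% with all below. The members' share was above the background for that direction and below it for either direction, and it rests on 2 genes. In FPKM, which is not TMM-scaled, both genes overlapped between the groups: Rab5a stood at 3.59, 3.03, 2.29 and 3.4 FPKM in the PM2.5 libraries, against 4.29, 3.4, 2.33 and 3.12 FPKM in the PBS libraries.

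Rab5c, at chromosome 11, 100715009 to 100738215 on the minus strand, varied more. It had 15.37, 22.04, 27.89 and 18.53 CPM in the PM2.5 libraries, against 16.13, 13.21, 19.83 and 15.05 CPM in the PBS libraries. The groups overlapped, and its 3 highest libraries were PM2.5 replicates 18 and 17 and PBS replicate 12. Its log2 fold change was 0.38 (SE 0.20, edgeR adjusted p = 0.326). In FPKM, which is not TMM-scaled, the direction was the opposite, with means of 10.48 under PM2.5 and 12.9 under PBS. The 3 libraries with the highest Rab5c CPM also had the highest sums over the 13 erythroid markers tested. The sums were 14900, 25560, 25290 and 15630 CPM in the PM2.5 libraries, against 11770, 11840, 19420 and 12820 CPM in the PBS libraries. Alas2 made up most of each sum. It had 12770, 22100, 22190 and 12770 CPM in the PM2.5 libraries, against 9612, 10210, 17000 and 10500 CPM in the PBS libraries. For Slc4a1, the next largest, the highest libraries were PM2.5 replicates 17, 18 and 21. Of the 13 erythroid markers, 12 had a positive change on the TMM scale, with a median of 0.48. With the erythroid marker mean as a covariate the Rab5c change was 0.04. It was 0.08 without PM2.5 replicates 17 and 18, its highest libraries of that group, and 0.61 without PM2.5 replicates 9 and 21, its lowest. The part of red cell RNA in the Rab5c values was not tested. Over the 7 early endosome members tested, of 8 listed, 6 had a positive change, with a median of 0.25 and a range from -0.01 (Rab35) to 0.49 (Rab5a).

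**Figure D3:**
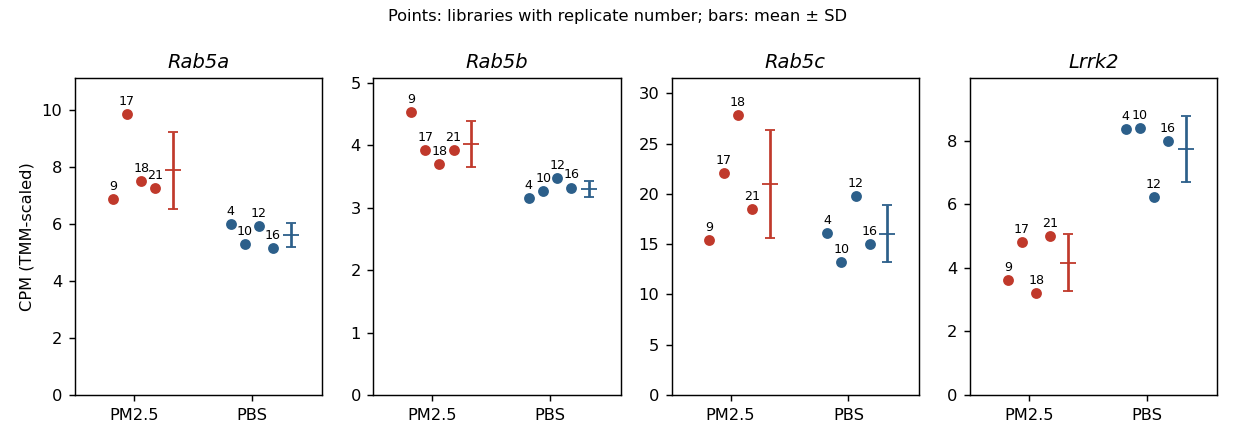
TMM-scaled CPM in each library for Rab5a, Rab5b, Rab5c and the kinase gene Lrrk2, with PM2.5 libraries left of PBS libraries. Rab5a (mean 7.893 CPM under PM2.5 and 5.611 under PBS) and Rab5b do not overlap between the groups, Rab5c does, and Lrrk2 (mean 4.161 CPM under PM2.5 and 7.743 under PBS) is lower in every PM2.5 library.

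Among the recycling genes, Rab11a and Rab11b had positive changes and Rab14 a negative one, none past the test. Rab11a had 10.98, 10.5, 13.75 and 9.931 CPM in the PM2.5 libraries, against 9.723, 6.809, 10.19 and 7.496 CPM in the PBS libraries. The groups overlapped through PBS replicate 12, and the log2 fold change was 0.40 (SE 0.18, edgeR adjusted p = 0.252). Rab11b had 13.48, 13.76, 16.82 and 13.58 CPM in the PM2.5 libraries, against 14.09, 10.34, 11.54 and 10.65 CPM in the PBS libraries. Its groups overlapped through PBS replicate 4 alone, and the change was 0.31 (SE 0.17, adjusted p = 0.345). Rab14 had 4.195, 3.646, 4.145 and 4.763 CPM in the PM2.5 libraries, against 5.332, 5.204, 4.86 and 4.643 CPM in the PBS libraries. It overlapped through PM2.5 replicate 21 and PBS replicate 16, and the change was -0.26 (SE 0.15, adjusted p = 0.353). Of the 4 recycling members tested, of 7 listed, 2 had a positive change, with a median of 0.12.

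Golgi and endoplasmic reticulum genes were spread on both sides of 0. Rab6a, which carries vesicles from the Golgi, had 13.54, 20.19, 19.5 and 14.09 CPM in the PM2.5 libraries, against 15.59, 10.6, 14.31 and 9.403 CPM in the PBS libraries. Rab18 had 5.278, 6.541, 7.79 and 6.177 CPM in the PM2.5 libraries, against 4.527, 3.908, 6.319 and 4.016 CPM in the PBS libraries. PM2.5 replicates 17 and 18 were the 2 highest for both genes, and the groups overlapped. The changes were 0.43 for Rab6a (SE 0.20, edgeR adjusted p = 0.276) and 0.46 for Rab18 (SE 0.18, adjusted p = 0.205). With the erythroid mean as a covariate they were 0.18 for Rab6a and 0.21 for Rab18, and the part of red cell RNA in these values was not tested. Rab1a, which carries cargo from the endoplasmic reticulum to the Golgi, had a change of 0.02 (SE 0.14, 95% interval -0.28 to 0.32). Rab30, a Golgi member, had the lowest change of the family, -0.45 (SE 0.24, adjusted p = 0.335), with means of 0.9537 ± 0.2912 CPM under PM2.5 and 1.301 ± 0.3393 CPM under PBS (SD, n = 4 each). Rab36, another Golgi member, had 0.52 (SE 0.33, adjusted p = 0.407), and PBS replicate 4 shared its highest level with PM2.5 replicate 18. Rab43 had 5.863, 13.08, 8.864 and 8.957 CPM in the PM2.5 libraries, against 8.085, 8.459, 8.222 and 10.54 CPM in the PBS libraries, with a change of 0.06 (SE 0.21, adjusted p = 0.907). Rab43 shares 4164 exon bases with Gm45140 on the same strand, with 5977 reads for Rab43 and 121 for Gm45140 over all libraries, so a part of its reads is uncertain. Over the 11 members of this role tested, 8 had a positive change, with a median of 0.13.

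Secretory granule genes held the highest change of the family. Rab3d, found on the secretory granules of exocrine, mast and other secretory cells, had 0.946, 0.6413, 0.9437 and 0.9265 CPM in the PM2.5 libraries, against 0.7591, 0.3637, 0.3105 and 0.6542 CPM in the PBS libraries. PM2.5 replicate 17 lay below PBS replicates 4 and 16, so the groups overlapped, and the log2 fold change was 0.72 (SE 0.28, 95% interval 0.13 to 1.30, edgeR adjusted p = 0.202). Rab27a, needed for granule release by cytotoxic T cells and for melanosome transport, had 1.407, 1.887, 1.499 and 1.2 CPM in the PM2.5 libraries, against 0.8963, 1.073, 0.9721 and 1.49 CPM in the PBS libraries. PBS replicate 16 fell among the PM2.5 libraries, and the change was 0.42 (SE 0.21, adjusted p = 0.29). Rab44, a large member known from mast cell granules, had 1.481, 1.136, 1.221 and 0.8196 CPM in the PM2.5 libraries, against 0.6311, 0.7835, 0.6076 and 1.317 CPM in the PBS libraries, with a change of 0.47 (SE 0.26, adjusted p = 0.343). PBS replicate 16 was again highest of its group. Of the 14 neutrophil markers, 5 of 9 tested rose past the test, the median change over the 9 was 0.95, and their summed level was 29.09 to 56.78 CPM in the PM2.5 libraries and 14.7 to 29.14 CPM in the PBS libraries. With the neutrophil minus B cell marker mean as a covariate the changes were -0.22 for Rab27a, -0.43 for Rab44 and 0.72 for Rab3d. That fit called 0 of the 10361 genes. In it 381 genes passed an unadjusted edgeR p under 0.05, against 1872 without the covariate. The part of neutrophil number in these values was not tested. Mast cell and basophil markers summed to 3.172 to 6.734 CPM in the PM2.5 libraries and 3.712 to 7.668 CPM in the PBS libraries. These sums rest on Hdc and Gata2, the 2 of 9 with enough reads to be tested. Hdc had means of 3.412 CPM under PM2.5 and 3.959 under PBS, and Gata2 1.462 and 1.074. The rest had group means of at most 0.096 CPM, with Tpsab1 at 0.

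Rab27b, of platelet and mast cell granules, had 13.68, 7.384, 13.75 and 9.503 CPM in the PM2.5 libraries, against 14.29, 8.683, 9.073 and 6.651 CPM in the PBS libraries. The groups overlapped fully, and the change was 0.20 (SE 0.24, edgeR adjusted p = 0.685). The 12 platelet markers summed to 1047, 627.2, 937.4 and 821.1 CPM in the PM2.5 libraries, against 945.8, 604.5, 628.8 and 523.4 CPM in the PBS libraries. The same 4 libraries were highest in both measures, and PBS replicate 16 was lowest in both; the part of platelet number in the Rab27b values was not tested. All 12 platelet markers had a positive change on the TMM scale and none passed the test. In FPKM each of the 12 had a lower mean under PM2.5, such as Pf4 with 221.9 against 233.8 under PBS. Tubb1 had 91.9 FPKM under PM2.5 and 111 under PBS. Rab8b had a change of 0.21 (SE 0.17, adjusted p = 0.501), Rab10 0.24 (SE 0.17, adjusted p = 0.472) and Rab8a, their relative in exocytosis, -0.11 (SE 0.15, adjusted p = 0.724). Rab13, a tight junction member at the edge of detection with 0 reads in PM2.5 replicate 17, had -0.37 with a wide interval of -1.64 to 0.90. Over the 9 members of this role tested, of 13 listed, 7 had a positive change, with a median of 0.21.

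Late endosome, lysosome and autophagy genes showed no call either. Rab7 had 6.323, 4.782, 5.995 and 5.238 CPM in the PM2.5 libraries, against 5.835, 4.701, 4.253 and 4.515 CPM in the PBS libraries. The groups overlapped, and the log2 fold change was 0.21 (SE 0.16, edgeR adjusted p = 0.488). Rab7b, its low relative, had -0.05 (SE 0.42, adjusted p = 0.962). Rab12, which acts on lysosomal degradation of the transferrin receptor, had the lowest change of the role, -0.31 (SE 0.23, adjusted p = 0.477). Of the 8 members tested, of 10 listed, 5 had a positive change, with a median of 0.20. In the last role, of members tied to cilia or less studied, 2 of 5 were tested and both had a negative change, Rab40c at -0.33 (SE 0.36, adjusted p = 0.651) and Rab28 at -0.03 (SE 0.26, adjusted p = 0.956).

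Gene by gene within each library, the Rab genes sat at median log2 deviations of 0.08, 0.06, 0.19 and 0.04 from their own means in PM2.5 libraries 9, 17, 18 and 21, against 0.11, -0.17, -0.15 and -0.13 in PBS libraries 4, 10, 12 and 16. PBS replicate 4 lay among the PM2.5 libraries, and the other 3 PBS libraries lay below all of them. These are deviations of TMM-scaled values. Relative to the median of all genes tested, the Rab median stayed positive under each of the scaling, filtering and leave-out alternatives run, with its lowest value, 0.03, for limma on log2(FPKM + 1).

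**Figure D4:**
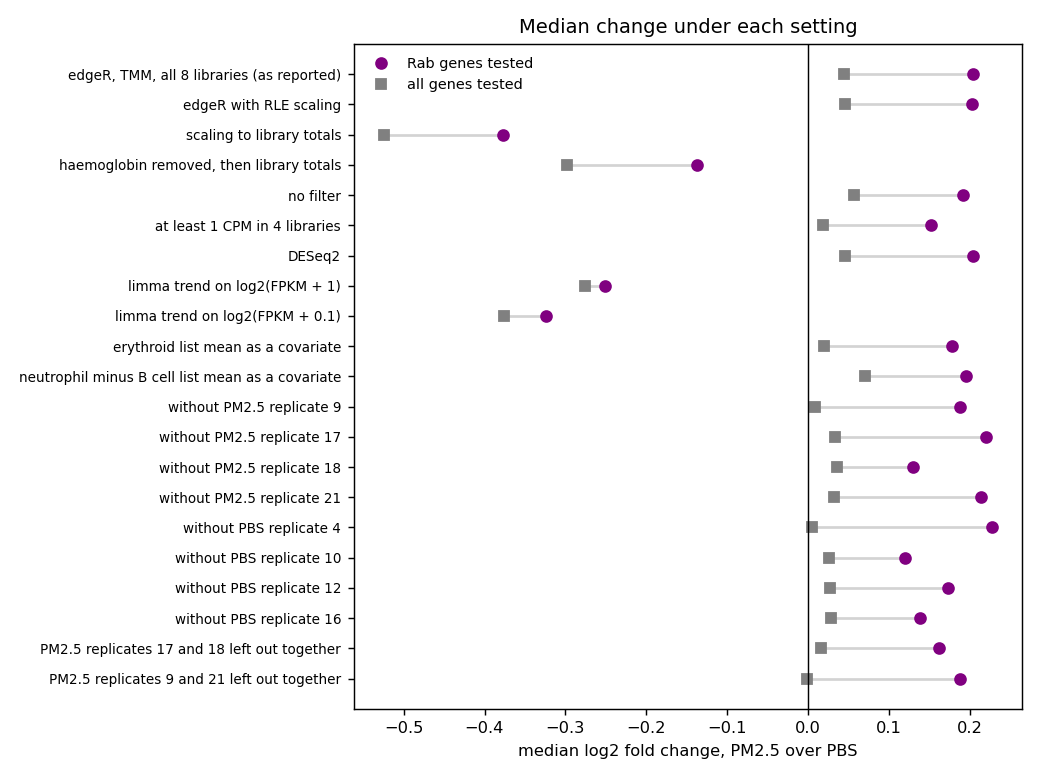
Median log2 fold change (PM2.5 over PBS) of the Rab genes tested and of all genes tested, for the analysis as reported and for each alternative setting. The Rab median lies above the all-gene median in every setting, while both fall below 0 with scaling to library totals (-0.38 for Rab genes and -0.52 for all genes), with haemoglobin removed, and with limma on FPKM.

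Most of the reads of the Rab genes were assigned to protein coding transcripts. Over the 41 members tested, the median coding share was 98.1%, and it was under 50% for 2, Rab40c (31.7%) and Rab24 (42.4%). For 20 of the 41, a single transcript held at least 90% of the reads. Rab14 had the lowest coding share of the 12 highest members: its coding transcript Rab14-201 took 57.4% ± 6.33 under PM2.5 and 51.4% ± 2.76 under PBS, and the intron-retaining Rab14-202 14.8% ± 4.36 under PM2.5 and 19.9% ± 4.99 under PBS (SD, n = 4 each). Rab11b was shared by 2 coding transcripts, with 49.7% ± 5.09 under PM2.5 and 45.3% ± 1.38 under PBS for Rab11b-203, and 39.8% ± 5.09 under PM2.5 and 43.4% ± 2.95 under PBS for Rab11b-201. The annotated coding sequence of Rab11b-203, of 582 bases, was the shortest used for any member. No GTP-binding loop motif was found in it, whereas 56 of the 59 members had one. The leading transcript of Rab11a held 70.2% ± 1.58 under PM2.5 and 69.1% ± 1.48 under PBS. Rab18-203, of 729 bases, took 28.1% to 30.9% in the PM2.5 libraries and 21.4% to 25.7% in the PBS libraries, with no overlap. Rab5a-201 took 91.9% to 97.0% in the PM2.5 libraries and 89.6% to 91.6% in the PBS libraries, also with no overlap. These were the transcripts without overlap among 68 that held at least 8% of a tested member's reads and were compared, over 36 members with reads in every library (2.94%). They were singled out after their values were seen and were not tested. The same share over the transcripts of all genes was not computed, so the 2.94% has no background beside it.

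**Figure D5:**
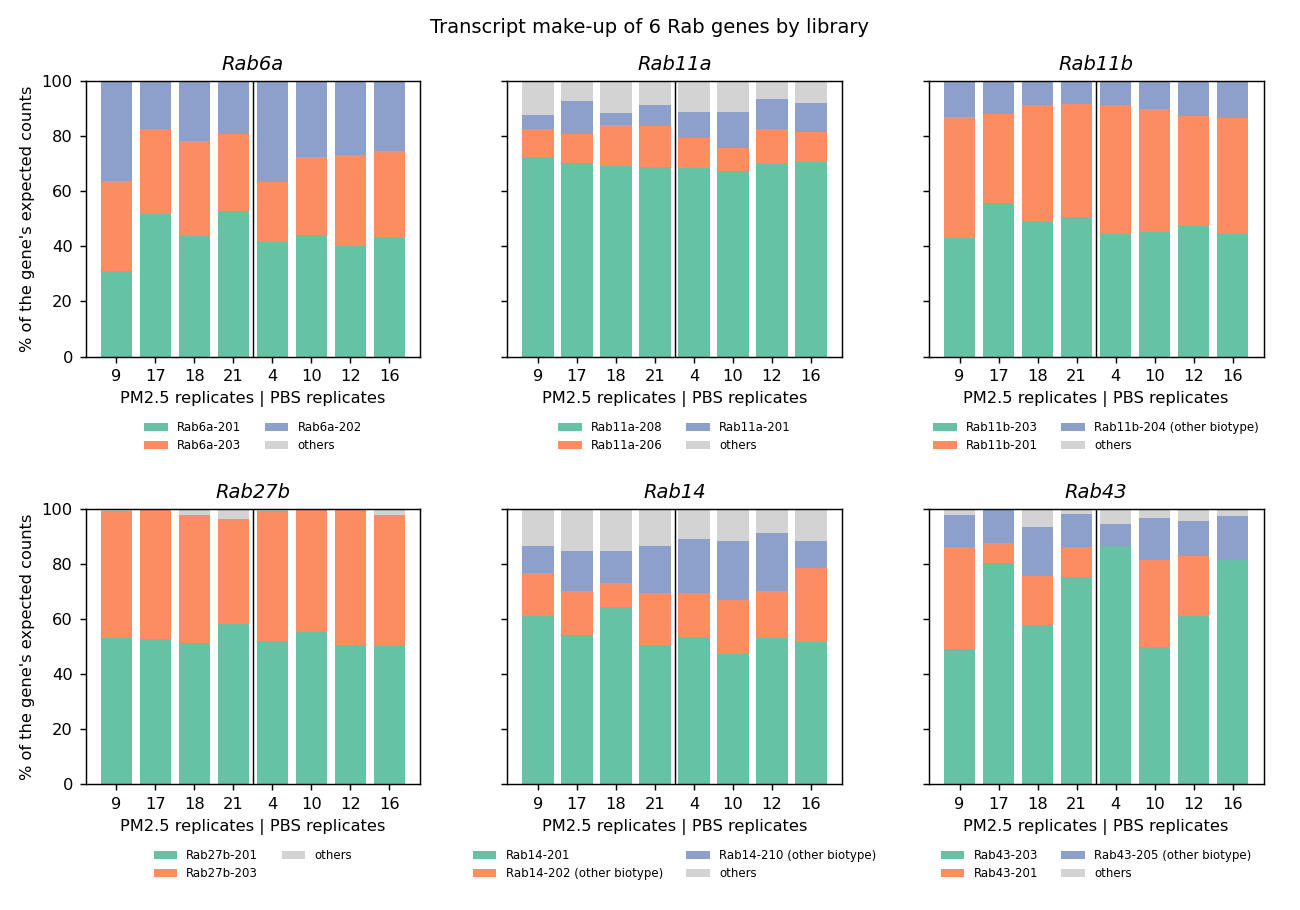
Share of a gene's reads (percent) assigned to each transcript in each library for Rab6a, Rab11a, Rab11b, Rab27b, Rab14 and Rab43, with PM2.5 libraries left of PBS libraries. Rab11a keeps about the same make-up in all libraries (leading transcript 70.2% under PM2.5 and 69.1% under PBS), whereas the shares of Rab43 vary widely between libraries within both groups.

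Reads could be shared with other genes for some members. Exons of 20 members overlap those of another gene, 6 of them on the same strand and 15 on the opposite strand. Rab6a overlaps Mrpl48 over 708 bases of the opposite strand, with 9365 reads for Rab6a and 388 for Mrpl48 over all libraries, and Rab24 overlaps Prelid1 over 1258 bases, with 254 reads for Rab24 and 1383 for Prelid1. The library preparation marks the strand, per the labels, but the sources used here do not say whether the counting used it. Of 4 pseudogenes named after members, Rab11b-ps2 had the most reads, 37 over all libraries.

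The 18 members not tested had at most 83 reads each over all libraries. They include members known mostly from nerve and epithelial cells. Rab3a, of synaptic vesicles, had 1, 8, 4 and 6 reads in the PM2.5 libraries, against 0, 1, 1 and 4 reads in the PBS libraries. Rab3c, its relative, had 0, 6, 7 and 0 reads in the PM2.5 libraries, against 0, 0, 1 and 0 reads in the PBS libraries. PM2.5 replicates 17 and 18 were the libraries with more than 1 read of Rab3c, and they also held neuronal transcripts: Camk2a, a neuronal kinase, had 0, 78, 97 and 0 reads in the PM2.5 libraries, against 1, 4, 0 and 0 reads in the PBS libraries. Snap25, of synaptic vesicle fusion, had 0, 29, 29 and 0 reads in the PM2.5 libraries, against 3, 1, 1 and 0 reads in the PBS libraries. The whole list of 14 brain markers, which Nrgn and other genes also found in blood dominate, summed to 51.67 to 88.79 CPM in the PM2.5 libraries and 38.64 to 70.1 CPM in the PBS libraries. This was noticed after the values were seen, and its part in the Rab3 reads was not tested. Rab39 went the other way in 1 library, with 4, 1, 4 and 4 reads in the PM2.5 libraries, against 3, 21, 8 and 3 reads in the PBS libraries.

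The genes that regulate and read Rab proteins were compared in the same way. Of 172 listed names, 168 matched a gene in the table and 147 were tested, and 1 was called (0.68%, against 1.6% of all genes), while 19 passed an unadjusted p under 0.05 (12.9%, against 18.1%). The median log2 fold change over the 147 was 0.03, and the groups did not overlap for 14 (9.52%, against 9.65% of all genes). None of 47 exchange factor genes, 34 GAP genes or 14 genes of prenylation and cycling was called by edgeR, and 1 of 52 effector genes was.

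That gene was Lrrk2, at chromosome 15, 91673175 to 91816120 on the plus strand, which encodes a kinase that phosphorylates Rab proteins such as Rab8a, Rab10 and Rab12. It had 3.61, 4.819, 3.201 and 5.013 CPM in the PM2.5 libraries, against 8.378, 8.385, 6.224 and 7.986 CPM in the PBS libraries. All PM2.5 libraries were below all PBS libraries, and Lrrk2 fell with a log2 fold change of -0.90 (SE 0.18, 95% interval -1.27 to -0.52, edgeR adjusted p = 0.0184). The call was lost without PM2.5 replicate 18 (adjusted p = 0.0668) and without PBS replicate 10 (adjusted p = 0.0625), and over all alternatives the adjusted p ran from 6.21e-05 to 0.995. Of its substrate genes, Rab8a had -0.11, Rab10 0.24 and Rab12 -0.31, none past the test.

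B cells are among the cells known to express Lrrk2. The summed level of the 12 B cell markers was 46.74, 47.53, 42.15 and 53.77 CPM in the PM2.5 libraries, against 68.27, 79.16, 48.35 and 72.93 CPM in the PBS libraries. These sums overlapped between the groups, since PM2.5 replicate 21 was above PBS replicate 12, whereas Lrrk2 did not overlap. All 12 markers had a negative change, with a median of -0.39, and 3 passed the test: Ebf1 (-1.12, edgeR adjusted p = 0.0068), Blk (-0.81, adjusted p = 0.0445) and Bank1 (-0.79, adjusted p = 0.0487). Every other marker list had a positive median change on the TMM scale. For neutrophil markers it was 0.947, with 8 of 9 tested positive and 5 called higher. For monocyte markers it was 0.525, with 10 of 12 positive and 3 called higher. A fit that included the difference of the neutrophil and B cell means gave Lrrk2 a log2 fold change of -0.77 (edgeR adjusted p = 0.995), and one that included the erythroid mean gave -0.89 (adjusted p = 0.194). Both fits called 0 of the 10361 genes, so the lost call is not particular to Lrrk2. The part of B cell number, or of other cell numbers, in the difference was not tested.

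The other genes named from these lists did not pass the test. Ric1, of the exchange factor for Rab6, had -0.62 (SE 0.17, edgeR adjusted p = 0.0694), and Rubcn, which binds Rab7 and restrains autophagosome maturation, had -0.62 (SE 0.16, adjusted p = 0.0696). St5, also known as Dennd2b and an exchange factor for Rab13, had 0.75 (SE 0.26, adjusted p = 0.152). Rab3gap1, the catalytic subunit of a complex that acts on Rab3 and Rab18, had 4.394, 3.738, 4.089 and 3.932 CPM in the PM2.5 libraries, against 5.296, 7.023, 5.252 and 5.024 CPM in the PBS libraries. Its groups did not overlap, and the change was -0.48 (SE 0.15, adjusted p = 0.124). Tbc1d14, a TBC-domain protein of autophagy and recycling endosomes, had 0.39 (SE 0.14, adjusted p = 0.169). Yipf3 and Yipf4, Golgi proteins of the Yip family, had 0.51 (SE 0.16, adjusted p = 0.12) and 0.55 (SE 0.26, adjusted p = 0.286).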

How the data were processed

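Total RNA of 8 mouse buffy coat libraries was sequenced after random priming and strand marking with dUTP, per the labels. HISAT2 2.0.1, cutadapt 1.9.1, bcl2fastq 2.17.1.14 and build GRCm38 are listed, without their order, in the submitters' processing notes; the counting tool is not given in the sources used here. The authors deposited expected counts and FPKM for each of 118783 transcripts, per the file headers, and 24.5% of the expected counts were not whole numbers. Of the transcripts, 116710 matched GENCODE M21; the rest held at most 0.05318% of a library's counts. Expected counts were summed per gene and rounded; the deposited FPKM were summed per gene. Deposited totals were 72081019 to 89032794 per library, and replicates differed by more than sampling noise (chi-square per degree of freedom 18.99 to 53.34).

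Groups came from the labels. Genes passing edgeR's filterByExpr (minimum count 10, total 15) were tested with edgeR 4.0.16 (R 4.3.3) in its quasi-likelihood form, with TMM scaling, two-sided, Benjamini-Hochberg adjusted over all genes tested; standard errors were derived from the F statistic and the intervals are approximate. The procedure was tested on simulated data, which did not carry the observed differences in TMM factors between libraries. DESeq2 1.42.0, limma 3.58.1 on log2(FPKM + 1) and log2(FPKM + 0.1), other scalings and filters, covariates and left-out libraries were alternatives. Genes were named by a rule: members called, members whose groups do not overlap, the 12 highest in FPKM, the 4 highest and 4 lowest changes, the Rab5, Rab7, Rab11 and Rab27 sets, and regulators called or among the 2 smallest p-values of their list. The members and lists were chosen with earlier results of these data known. Intervals cover the spread between libraries. Reads without molecular identifiers are not independent molecules. Members from mouse chromosome 18 have no printed sequence.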

Additional observations from a re-analysis of the deposited data

Results flagged for a closer look

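The 22 named Rab genes, the 8 named regulators and the Rab share of reads were examined in both groups, and in 4 of these 62 sets of 4 libraries 1 library stood far from the other 3; chance alone marks about 1 in 20 such groups. Rab11b reached 16.82 CPM in PM2.5 replicate 18, with the next PM2.5 library at 13.76 CPM. Rab43 reached 10.54 CPM in PBS replicate 16, with the next PBS library at 8.459 CPM. Rab3d was at 0.6413 CPM in PM2.5 replicate 17, with the next PM2.5 library at 0.9265 CPM. Rab3gap1 reached 7.023 CPM in PBS replicate 10, with the next PBS library at 5.296 CPM.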

How the results depend on the processing

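No paired analysis was possible because the PM2.5 and PBS libraries share no replicate numbers. The count of Rab genes called was 0 under all 20 alternatives. The median log2 fold change of the Rab genes was 0.20 and turned negative with scaling to library totals (-0.377), with haemoglobin removed (-0.137), and with limma on log2(FPKM + 1) (-0.251) and log2(FPKM + 0.1) (-0.324), where the median of all genes was also negative (-0.524, -0.298, -0.276 and -0.376 in the same order); leaving out 1 library gave 0.12 to 0.227. The 1 regulator or effector called became 4 with library totals, 3 with haemoglobin removed, 5 with no filter, 3 with the filter of 1 CPM in 4 libraries and 3 with DESeq2. It became 0 with either limma fit, either covariate (erythroid, or neutrophil minus B cell) and without PM2.5 replicates 17 and 18, and leaving out 1 library gave 0 to 2. The cause of these shifts was not tested. Over all genes edgeR called 48 higher and 118 lower, against 111 and 262 with DESeq2, 8 and 475 with library totals, 313 and 311 with no filter, and 0 with either covariate or limma fit.

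Relative to the median of all genes tested, 27 values of the named genes changed sign, and the cause was not tested. Under the neutrophil minus B cell covariate these were Rab10 (-0.0352), Rab14 (0.00627), Rab44 (-0.499), Rab30 (0.288), Rab13 (0.596), Rab27a (-0.293), Rab43 (-0.329) and Yipf4 (-0.0508), and under the erythroid covariate Rab43 (-0.394), Rab13 (0.435) and Yipf4 (-0.0271). Rab10 was also -0.00494 with limma on log2(FPKM + 1). Rab43 was -0.0639 with library totals, -0.0483 with haemoglobin removed, -0.0218 with no filter, -0.0351 with the 1 CPM filter, and -0.183 and -0.179 with limma. Without PM2.5 replicates 17 and 18, Rab43 was -0.27 and Rab13 0.0763. Leaving out 1 library at a time, Rab43 ran from -0.195 to 0.18 and Rab7b from -0.235 to 0.0582. Depth limits the 18 members with too few reads to be tested.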
